A study of Mus musculus with 9 samples.

Results

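The satellite cell and myogenic regulatory factors are 10 genes of muscle stem cells and of muscle differentiation, Pax7, Pax3, Myf5, Myf6, Myod1, Myog, Mef2a, Mef2c, Mef2d and Cdh15. They were taken as the probe sets whose annotation gives exactly 1 gene symbol, that symbol being 1 of these 10. This gave 25 probe sets, among 34945 with 1 symbol for 18193 genes, and no measured value was used to choose them. A probe set is a group of short DNA probes that together give 1 signal for the transcripts of a gene. Affymetrix arrays of tibialis anterior muscle came from 9 male C57BL/6J mice aged 15 weeks, each hybridised singly, with 3 mice to a group. The control group was injected with saline and fed an AIN93-based diet, the DEX group received dexamethasone (DEX) at a dose of 5 mg/kg, a synthetic glucocorticoid that causes muscle atrophy, daily for a week on that diet, and the DEX + TE group received the same injections on the diet with 2% turmeric extract (TE). The diets began 5 days before the first injection according to the protocol, whereas the sample titles describe turmeric as given after DEX. There was no group with TE and saline, so TE was compared in injected mice only, and mice with body and muscle weights near the average had been chosen for the arrays.

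Satellite cells are the resident stem cells of skeletal muscle and lie between the fiber and its basement membrane. The paired-box factors Pax7 and Pax3 mark and maintain them, and the basic helix-loop-helix factors Myf5 and Myod1 commit their progeny to the muscle lineage, after which Myog drives differentiation and Myf6 is kept in mature fibers. The MEF2 factors act together with these factors at muscle promoters and remain active in the fiber, and Cdh15 (M-cadherin) is an adhesion molecule between satellite cell and fiber. Whole muscle is mostly fiber RNA, so fewer cells of a type and less RNA per cell cannot be told apart in any value given here.

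The promoters of Cdh15, Myog and Mef2a are shown because these genes, with Mef2c, had the members that stood furthest from the control group relative to their spread. RefSeq sequences of GRCm38.p6 were found for 7 of the 10 genes (Pax7, Myf5, Myog, Mef2a, Mef2c, Mef2d and Cdh15), and not for Pax3, Myf6 and Myod1. Each runs from 250 bases before the start site to 50 bases from it, 5′ to 3′ on the strand of the gene. Capitals mark the E-box, CANNTG, the letters to which MyoD-family factors bind, in Cdh15 (chr8:122848124-122848423, plus strand) and Myog (chr1:134289754-134290053, plus strand), and the MEF2 consensus in Mef2a (chr7:67372809-67373108, minus strand).
Cdh15: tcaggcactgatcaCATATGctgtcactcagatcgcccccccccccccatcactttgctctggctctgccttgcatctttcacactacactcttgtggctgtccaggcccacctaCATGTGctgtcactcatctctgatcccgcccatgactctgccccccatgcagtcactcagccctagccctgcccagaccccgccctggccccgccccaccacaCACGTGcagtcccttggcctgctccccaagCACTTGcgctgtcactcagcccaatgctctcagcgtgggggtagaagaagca
Myog: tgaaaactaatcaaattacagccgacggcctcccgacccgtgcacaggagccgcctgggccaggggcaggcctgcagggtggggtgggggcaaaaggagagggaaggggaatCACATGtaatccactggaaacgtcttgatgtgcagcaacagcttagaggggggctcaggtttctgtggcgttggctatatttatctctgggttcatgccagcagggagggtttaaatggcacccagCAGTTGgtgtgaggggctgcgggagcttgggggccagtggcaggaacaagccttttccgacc
Mef2a: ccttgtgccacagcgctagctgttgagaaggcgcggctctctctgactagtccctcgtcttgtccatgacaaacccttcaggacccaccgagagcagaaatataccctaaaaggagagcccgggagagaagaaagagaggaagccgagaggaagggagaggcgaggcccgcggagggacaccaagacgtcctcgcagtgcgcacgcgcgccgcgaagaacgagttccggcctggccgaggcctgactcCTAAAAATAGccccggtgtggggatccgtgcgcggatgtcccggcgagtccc
With the start site counted as 0, the E-boxes of Cdh15 began at −236, −135, −32 and −2, and those of Myog at −138 and −12. The MEF2 consensus of Mef2a began at −2, and the other member promoters searched held no such match. Both strands were searched, and E-boxes occurred in 72.3% of 32851 mouse promoters of this length and the MEF2 consensus in 0.557%. The glucocorticoid response element occurred in 0.475% of them and in none of the 9 member promoters, and its half-site, TGTTCT, in 19.0% and in 2 of the 3 Mef2c promoters. Such a match describes letters only, and no binding was measured.

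Signals are given on the linear scale of the deposited values, in which the trimmed mean of each array is 500, and differences between groups as log2 fold changes. A probe set was tested where at least 1 group had a mean log2 signal of at least that of 50, and 24 of the 25 member probe sets were tested among 29269. It was called where limma's adjusted p, corrected by Benjamini-Hochberg over all probe sets tested, was under 0.05 and the absolute log2 fold change was at least 0.6, the thresholds of the study's methods. On the 9 arrays 58.5 to 65.2% of probe sets reached 50. Actin probe sets at the 3′ and 5′ ends, whose log2 difference reflects RNA integrity, differed by 0.25 to 0.33 in control mice, by 0.10 to 0.43 in DEX mice and by 0.38 to 0.54 in DEX + TE mice. The same difference for Gapdh was −0.38 to −0.32, −0.38 to −0.30 and −0.35 to −0.30, so the higher actin values of the DEX + TE group were not seen there. The tissue label was borne out by the 8 fast fiber genes, whose mean log2 signal was 15.77 to 16.06 in the control group, and 5 of 7 satellite cell markers reached 50 on all 9 arrays.

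Neither DEX injection nor TE supplementation gave a called difference in any member. In the DEX group 0 of 24 member probe sets were called against the control group, where 0.232% of all probe sets tested were called higher and 0.27% lower. In the DEX + TE group 0 were called against the DEX group (0.00683% called higher and 0.00683% lower among all) and 0 against the control group (0.222% and 0.157%). All 6 injected mice against the 3 control mice also gave 0 (0.55% and 0.379%). An unadjusted p under 0.05 from limma was reached by 4 of the 24 member probe sets for DEX against control, 1 higher and 3 lower, where 14.4% of all probe sets tested reached it (6.1% higher and 8.33% lower). It was reached by 1 member, lower, for DEX + TE against DEX, beside 7.76% of all (6.2% higher and 1.56% lower). For DEX + TE against control 9 did, 2 higher and 7 lower, beside 13.8% (7.95% higher and 5.84% lower), and for all injected mice 8 did, 2 higher and 6 lower, beside 15.8% (7.98% higher and 7.83% lower). Several of these probe sets belong to Mef2a and Mef2c. With 1 probe set for each of the 10 genes, DEX against control gave 1 higher and 0 lower (6.16% and 9.15% of all genes). For DEX + TE against DEX it was 0 and 0 (5.96% and 1.49%). Against control, DEX + TE gave 2 and 1 (7.64% and 6.78%) and all injected mice 2 and 1 (7.79% and 8.93%). Rank Product, the test named in the study's methods, called 0 members in each comparison. Its lowest false discovery rate for a member was 0.125, for DEX + TE against control. Over all probe sets it called 28 higher and 48 lower for DEX against control. For DEX + TE against DEX it called 27 and 6, for DEX + TE against control 60 and 66, and for all injected mice 340 and 77. The paper reports more probes for DEX against control. The 0 here therefore does not show what the study's own run gave for the members. In an earlier check on simulated data, Rank Product also lost changes where probe sets differed in spread.

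**Figure D1:**
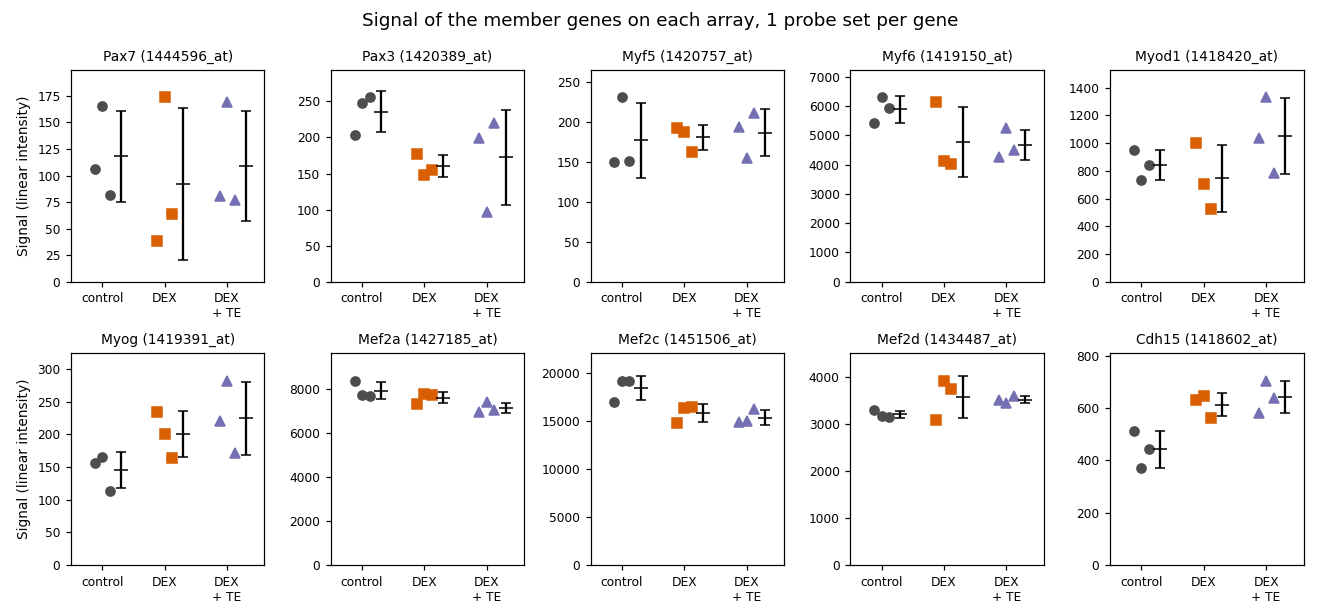
Signal (linear intensity, y axis from 0) of the probe set that stands for each of the 10 genes on each array, by group (x axis), with the mean and SD of the 3 mice as bars. All 6 injected mice lie above the 3 control mice in Cdh15 (control 370.1 to 514, injected 562 to 706) and below them in Mef2c, and the groups overlap widely in Pax7 and Myf5.

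Among the genes of the satellite cell itself, Cdh15 was higher in value in both injected groups while Pax7 and Pax3 were not. Cdh15 (1418602_at; chr8:122848374-122867397) had signals of 514, 370.1 and 445 in the control mice, 632, 647 and 562 in the DEX mice and 581, 706 and 640.4 in the DEX + TE mice. The lowest injected mouse was above the highest control mouse, whereas the DEX and DEX + TE groups overlapped. The log2 fold change was 0.48 for DEX against control (95% interval 0.14 to 0.83; limma adjusted p = 0.209) and 0.54 for DEX + TE against control (0.20 to 0.89; limma adjusted p = 0.191). Over all injected mice it was 0.51, or 1.43-fold, with a limma adjusted p of 0.12. The two-sided exact permutation test of 6 against 3 arrays gave p = 0.0238 for this gene, the smallest it can give, and that of 3 against 3 cannot go below 0.1. The lack of overlap fixes this p and adds nothing to it, and 10.9% of all probe sets tested did not overlap in this comparison. The interval of the difference between the DEX + TE and DEX groups was −0.28 to 0.41.

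Pax7, the defining factor of the satellite cell, was dim and varied more between mice of a group than between groups. Its brighter probe set (1444596_at) had signals of 107, 165 and 82.0 in control mice, 38.4, 174 and 64.0 in DEX mice and 80.6, 169 and 77.4 in DEX + TE mice. In each group 1 mouse stood above the others, at 165, 174 and 169, and the groups overlapped. The log2 fold change of DEX against control was −0.59 with an interval of −1.96 to 0.78. The other probe set (1452510_at) gave −0.03 (−0.67 to 0.61) in that comparison and 0.43 (−0.20 to 1.07) for DEX + TE against DEX. The 2927 probe sets in the same band of brightness as the second had a median of 0.24 there, and the part of that shift in the Pax7 values was not tested.

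Pax3, a paralog of Pax7 that marks muscle progenitors of the limb in the embryo, was lower in value after DEX injection. Its brightest probe set (1420389_at) had signals of 203, 248 and 256 in control mice, 178, 149 and 155 in DEX mice and 199, 97.0 and 221 in DEX + TE mice. The DEX mice lay below the control mice without overlap, but 1 DEX + TE mouse lay above the lowest control mouse. The log2 fold change of DEX against control was −0.55 (−1.25 to 0.15; limma adjusted p = 0.451). A dimmer probe set (1441743_at) was under 50 on 3 of the 9 arrays, all of them injected, with 71.1, 80.5 and 152 in control mice, 34.5, 53.2 and 55.5 in DEX mice and 78.7, 37.4 and 12.6 in DEX + TE mice. The last (1430335_a_at) ranged from 8.26 to 136, stayed below a group mean log2 signal of that of 50 and was not tested.

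Of the 4 myogenic regulatory factors, Myog stood furthest above the control group in both injected groups, Myf6 was lower in value in both, and Myf5 and Myod1 overlapped with control. Myog (1419391_at; chr1:134290004-134292548), which drives the last step of differentiation and rises in fibers that lose their nerve, had signals of 157, 166 and 114 in control mice, 235, 201 and 164 in DEX mice and 219.9, 283 and 171 in DEX + TE mice. The DEX + TE mice lay above all control mice, whereas the lowest DEX mouse was just below the highest control mouse. In log2 units the difference was 0.46 for DEX against control (−0.09 to 1.02; limma adjusted p = 0.426), 0.61 for DEX + TE against control (0.06 to 1.17; limma adjusted p = 0.325) and 0.15 (−0.40 to 0.71) for DEX + TE against DEX. Over all injected mice it was 0.54 (limma adjusted p = 0.267; two-sided exact permutation p = 0.0476).

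Myf6 (1419150_at), or MRF4, which is the factor of this family kept in adult fibers, was bright, with signals of 5404, 6294 and 5939.8 in the control group. The DEX mice had 6148, 4138 and 4024 and the DEX + TE mice 4259, 5238 and 4496. The DEX + TE mice lay below the control mice without overlap, and 1 DEX mouse lay among the control mice. On the log2 scale the difference was −0.33 (−0.75 to 0.10; limma adjusted p = 0.463) for DEX against control and −0.34 (−0.76 to 0.09; limma adjusted p = 0.456) for DEX + TE against control, and the difference between the injected groups had an interval of −0.44 to 0.42.

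Myod1, which commits activated satellite cells, gave signals of 947, 736 and 845 in control mice, 1002, 708 and 527 in DEX mice and 1039.8, 1330.3 and 783 in DEX + TE mice on its brighter probe set (1418420_at). The groups overlapped in all comparisons, and the largest difference was that of DEX + TE against DEX, 0.51 with an interval of −0.14 to 1.16 (limma adjusted p = 0.706). The second probe set (1447675_x_at), whose suffix marks probes that may bind other transcripts, was under 50 on 5 of the 9 arrays and on all 3 of the DEX + TE group. Its fitted log2 fold change, −1.54 (−3.66 to 0.57) for DEX + TE against DEX, was opposite in sign to that of the brighter probe set, and with the mean over both probe sets the Myod1 value of that comparison turned to −0.52. Myf5 (1420757_at), the earliest of these factors in development, had signals of 149.5, 231 and 151 in control mice, 192, 187 and 163 in DEX mice and 194, 155 and 212 in DEX + TE mice. Its log2 fold changes of 0.06 (−0.42 to 0.53) and 0.04 (−0.44 to 0.52) for DEX against control and DEX + TE against DEX were smaller than the spread between mice.

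**Figure D2:**
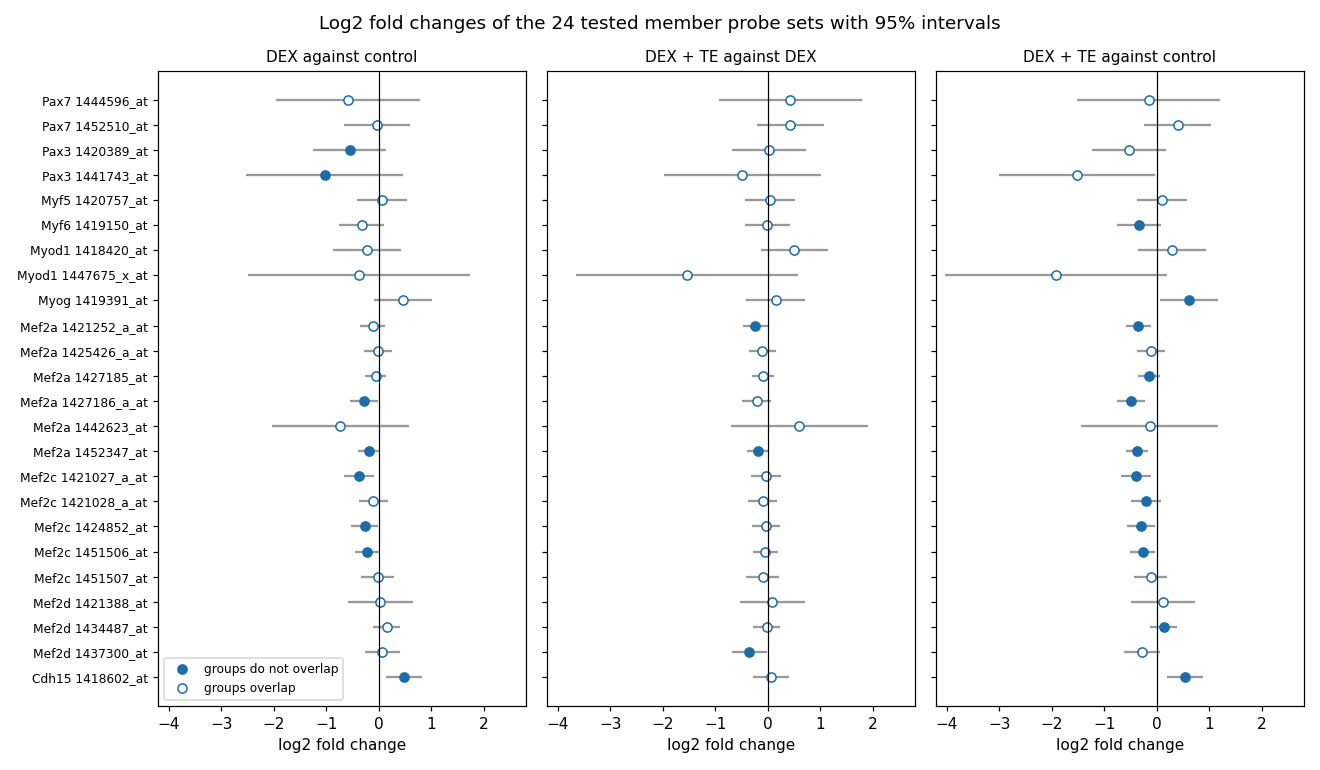
Log2 fold change (x axis) of each of the 24 tested member probe sets (y axis) in 3 comparisons, with limma's 95% interval as lines and filled points where the 2 groups did not overlap. The narrow intervals belong to the bright Mef2a and Mef2c probe sets, most of which lie left of 0 in both comparisons with control, and Cdh15 lies right of 0 in both.

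The MEF2 factors made up 14 of the 25 probe sets, and those of Mef2c and Mef2a were mostly lower in value in injected mice whereas those of Mef2d differed in direction. Mef2c, a MEF2 factor abundant in fibers, was among the brightest genes on the array. Its probe set with the largest difference (1421027_a_at) had signals of 18829, 18995 and 18434 in control mice, 12644, 16188 and 14988 in DEX mice and 15091, 12922 and 14989 in DEX + TE mice. All injected mice lay below all control mice, and the injected groups overlapped. In log2 units the difference was −0.37 (−0.65 to −0.08; limma adjusted p = 0.24) for DEX against control, −0.39 (−0.68 to −0.10; limma adjusted p = 0.241) for DEX + TE against control and −0.02 (−0.31 to 0.26) between the injected groups. Over all injected mice the log2 fold change was −0.38, or a change of −23.1% (limma adjusted p = 0.153).

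The other Mef2c probe sets were lower in value in both injected groups as well, by smaller amounts. The one that stands for the gene by brightness (1451506_at) had signals of 16915, 19092 and 19162 in control mice, 14706, 16298 and 16419 in DEX mice and 14822, 14928 and 16199 in DEX + TE mice, with log2 fold changes of −0.22 and −0.26 against control. Another (1424852_at) gave −0.27 and −0.30, and on both of these all injected mice lay below all control mice. On the remaining pair, 1421028_a_at and 1451507_at, the groups of the DEX comparison overlapped and the values were −0.11 and −0.02, the latter with 1 control mouse above the rest. Mef2c ranked between the 95.8 and 98.4 percentiles of brightness. The 2927 probe sets in the brightness band that holds them, the highest of 10, had a median log2 fold change of −0.03 for DEX against control and −0.04 for all injected mice, and the brightest 1%, which holds no Mef2c probe set, −0.26 and −0.22.

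Mef2a, which is expressed in fibers alongside Mef2c, differed among its 6 probe sets. Probe set 1427186_a_at had signals of 4072, 4808 and 4271 in control mice, 3584, 3318 and 3958 in DEX mice and 3369, 2943 and 3069 in DEX + TE mice. Probe set 1452347_at had 6777, 7337 and 7116 in control mice, 6322, 5921 and 6322 in DEX mice and 5707, 5297 and 5315 in DEX + TE mice. On both, all injected mice lay below all control mice, and on the second the DEX + TE mice also lay below all DEX mice. Their log2 fold changes were −0.28 and −0.19 for DEX against control, and −0.49 (−0.76 to −0.21; limma adjusted p = 0.154) and −0.38 (−0.59 to −0.17; limma adjusted p = 0.152) for DEX + TE against control. A further probe set, 1421252_a_at, was lower in value in the DEX + TE group than in either other group without overlap, with −0.23 against DEX and −0.35 against control.

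The remaining probe sets of Mef2a differed less from control or were dim. On the brightest (1427185_at) the DEX and control mice overlapped, whereas the DEX + TE mice lay below all control mice. It gave −0.06 (−0.27 to 0.15) for DEX against control and −0.15 (−0.36 to 0.05) for DEX + TE against control, both smaller than on the 3 probe sets above. Probe set 1425426_a_at gave −0.01 and −0.11, and the dim 1442623_at had 1 DEX mouse at 23.5 among values of 83.3 to 126 on the other arrays. The suffix a_at marks probe sets for several transcripts of 1 gene, and which transcripts each probe set reports was not analysed here.

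**Figure D3:**
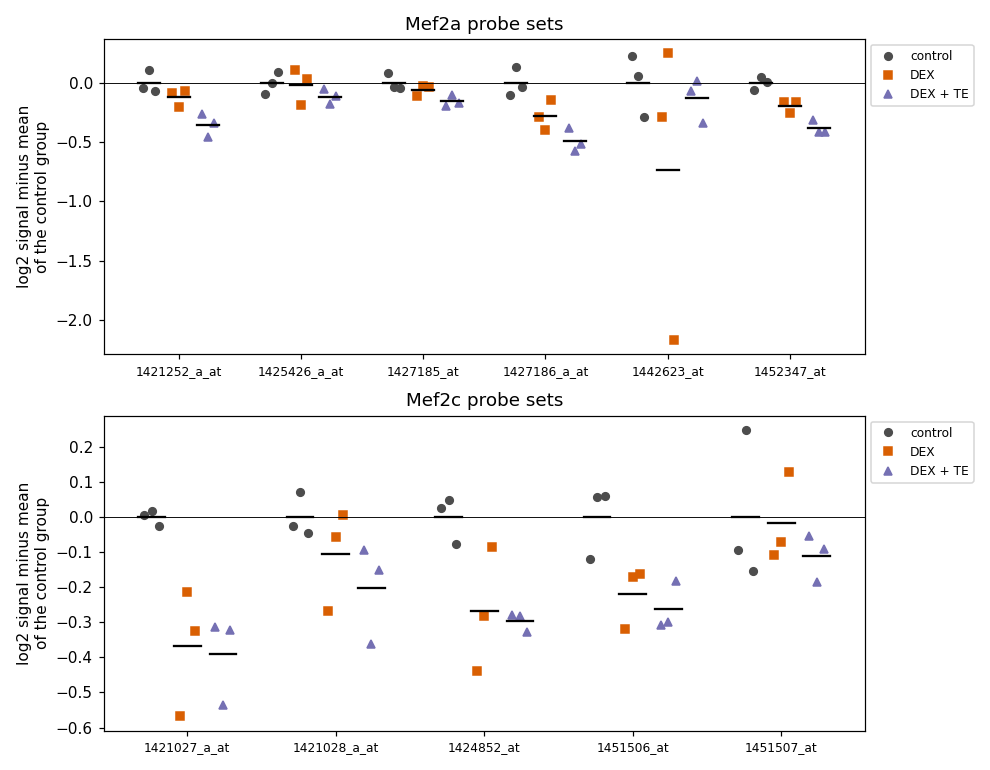
Log2 signal of each array minus the mean of the control group (y axis) for the 6 Mef2a probe sets (upper panel) and the 5 Mef2c probe sets (lower panel), with group means as bars; the panels have different y scales. The injected mice lie below all control mice in 2 Mef2a and 3 Mef2c probe sets, and 1 DEX array of the dim 1442623_at lies far below the others.

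Mef2d, the remaining MEF2 gene among the members, differed in direction between its probe sets. Its brightest probe set (1434487_at) had signals of 3295, 3183 and 3152 in control mice, 3085, 3931 and 3747 in DEX mice and 3525, 3444 and 3595 in DEX + TE mice. The DEX + TE mice lay above the control mice without overlap, and the log2 fold change was 0.13 (−0.13 to 0.40; limma adjusted p = 0.626). Probe set 1437300_at had signals of 1144, 1295 and 1244 in the DEX group and 995, 978 and 913 in the DEX + TE group, which did not overlap. Its log2 fold change of −0.35 (−0.69 to −0.01; limma adjusted p = 0.63) was the only one of the members past an unadjusted p of 0.05 between the injected groups, and 1 of its control mice lay among the DEX + TE mice. The third (1421388_at) gave 0.03 (−0.59 to 0.65) for DEX against control.

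Counted without a test, 8 of the 24 member probe sets did not overlap between the DEX and control groups, 1 higher and 7 lower, against 21.2% of all probe sets tested (9.07% higher and 12.1% lower). Between the DEX + TE and DEX groups 3 did not overlap, all of them lower (Mef2a 1421252_a_at, Mef2a 1452347_at and Mef2d 1437300_at), against 14.8% of all probe sets tested (10.1% higher and 4.75% lower). Between the DEX + TE and control groups 12 did not overlap, 3 higher and 9 lower, against 22.7% of all probe sets tested (12.4% higher and 10.3% lower). Between all injected and control mice 6 did not overlap, Cdh15 being higher and the 2 Mef2a and 3 Mef2c probe sets above lower, against 10.9% of all probe sets tested (4.9% higher and 6.02% lower). Probe sets of 1 gene are not independent, and these 6 belong to 3 genes. The comparisons with control share the control mice. By value alone, 6 of the 24 were higher and 18 lower for DEX against control (against 46.8% and 53.2% of all), 9 and 15 for DEX + TE against DEX (against 59.1% and 40.9% of all), 7 and 17 for DEX + TE against control (against 55.9% and 44.1% of all) and 7 and 17 for all injected mice (against 50.9% and 49.1% of all). The median log2 fold change of the 24 was −0.15 for DEX against control, −0.03 for DEX + TE against DEX and −0.18 for DEX + TE against control, beside −0.03, 0.05 and 0.05 over all probe sets tested. Mef2a and Mef2c hold 11 of the 24, and with 1 probe set per gene the lean to lower values was smaller or absent. Of the 10 genes, 4 were then higher and 6 lower for DEX against control (median −0.14), 6 and 4 for DEX + TE against DEX (0.03), 5 and 5 for DEX + TE against control (−0.03) and 5 and 5 for all injected mice (−0.03).

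The model of the spread bore on the adjusted p of the members. When limma was allowed to let the spread depend on the mean signal, 1 member had an adjusted p under 0.05 for DEX against control (Mef2c 1421027_a_at, limma adjusted p = 0.0423), where 3.87% of all probe sets tested did. For DEX + TE against control there were 4, Mef2a 1452347_at (limma adjusted p = 0.0104), 1427186_a_at (0.0143) and 1421252_a_at (0.0388) and Mef2c 1421027_a_at (0.0412), beside 2.57% of all. For all injected mice there were 5, the limma adjusted p being 0.0138 and 0.0153 for Mef2a 1452347_at and 1427186_a_at, 0.0150 and 0.0418 for Mef2c 1421027_a_at and 1424852_at, and 0.0334 for Cdh15, beside 4.77%. None of these reached 0.6 in absolute log2 fold change, and without this dependence on the mean 0 members passed at any fold, where 0.502%, 0.379% and 1.05% of all probe sets did in these comparisons and 0.0137% for DEX + TE against DEX.

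The difference between the DEX + TE and DEX groups depended on the scaling of the arrays. Over all probe sets tested, the median of this comparison was 0.05 as deposited and −0.21 once arrays were centred on their medians. Under this centring the value of Cdh15 turned from 0.06 to −0.19 and that of Myog from 0.15 to −0.10, that of Mef2a 1452347_at went from −0.19 to −0.44 and that of Mef2d 1437300_at from −0.35 to −0.60 (limma adjusted p = 0.315). Quantile normalization turned neither sign and gave 0.05, 0.03, −0.16 and −0.35 in the same order, with a median of −0.01 over all probe sets. Relative to the median of all probe sets, Cdh15 was at 0.01 and 0.02 with the deposited scaling and with median centring, Mef2a 1452347_at at −0.24 and −0.23 and Mef2d 1437300_at at −0.41 and −0.40. Against control, the values of Cdh15, Myog, Mef2c 1421027_a_at and Mef2a 1427186_a_at over all injected mice kept their direction under each of 16 alternatives.

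**Figure D4:**
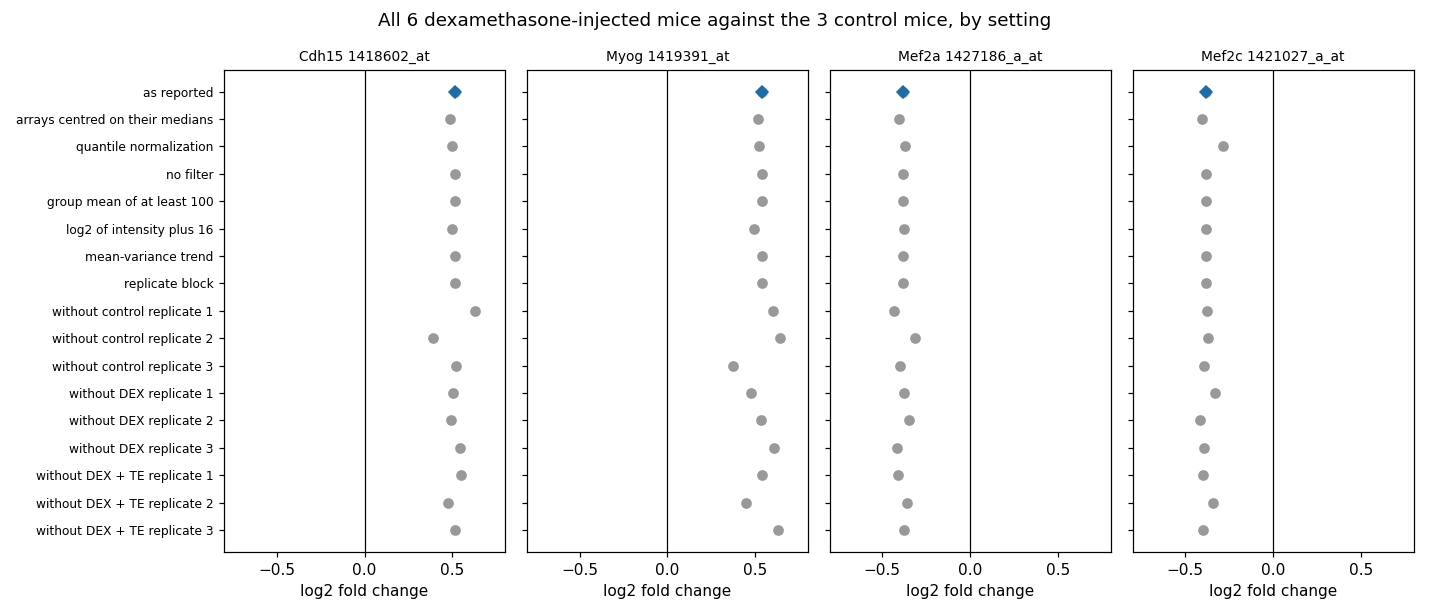
Log2 fold change (x axis) of all 6 injected against the 3 control mice for 4 members under each alternative setting (y axis), with the reported value as a diamond. Cdh15 stayed between 0.39 and 0.63, Myog between 0.37 and 0.64, Mef2a 1427186_a_at between −0.43 and −0.31 and Mef2c 1421027_a_at between −0.42 and −0.28.

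Of the genes that act around the members, 4 were called, each in a comparison of injected with control mice, on 1 probe set per gene. Over all 13662 genes tested, 0.593% were called higher and 0.476% lower for all injected mice, and 0.278% and 0.176% for DEX + TE against control. Among 14 tested of 15 other satellite cell genes, Vcam1 (1448162_at), an adhesion molecule of satellite cells and also of activated endothelium, fell. Its signals were 233, 247 and 262 in control mice, 133, 122 and 184 in DEX mice and 102, 113 and 87.8 in DEX + TE mice, and no groups overlapped. On the log2 scale the difference was −0.78 for DEX against control (limma adjusted p = 0.117), −1.30 for DEX + TE against control (limma adjusted p = 0.0379) and −1.04 for all injected mice (limma adjusted p = 0.0341). Its other probe sets gave −0.14 and −1.90 for DEX + TE against control and did not pass. Leaving out DEX replicate 3 kept both calls and leaving out each of the other 8 arrays lost them, and over all alternatives limma adjusted p reached 0.148 and 0.118. The median over the 14 genes for all injected mice was −0.18, beside −0.01 over all genes.

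Among 18 basic helix-loop-helix partners and inhibitors, Bhlhe40 (1418025_at), a repressor that binds E-boxes and takes part in the circadian clock, rose. It had signals of 3722, 3091 and 2749.8 in control mice, 7307, 8794 and 6028 in DEX mice and 8417, 6735 and 8496 in DEX + TE mice, with all injected mice above all control mice. In log2 units the difference was 1.26 over all injected mice (limma adjusted p = 0.0249), 1.20 for DEX (limma adjusted p = 0.0505) and 1.31 for DEX + TE against control (limma adjusted p = 0.0431). The first of these was lost without control replicate 2 or 3, DEX replicate 2 or DEX + TE replicate 1 or 3, with limma adjusted p of up to 0.0964 over all alternatives, and the third without each of the 9 arrays, under median centring and with only the arrays compared (up to 0.149). The other 17 genes of the list were not called, and the median of the list was 0.11 over all injected mice.

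Among 5 tested of 6 genes of immature fibers, 1 rose and 1 fell. Myh8 (1426650_at), the perinatal myosin heavy chain, had signals of 81.4, 78.3 and 72.5 in control mice, 189, 191 and 217 in DEX mice and 223, 263 and 129 in DEX + TE mice. Its log2 fold change over all injected mice was 1.35 (limma adjusted p = 0.0405), a call that was kept without DEX + TE replicate 3 and lost without each of the other 8 arrays (limma adjusted p up to 0.132 over all alternatives). Median centring and quantile normalization also ended it. Myosin heavy chain genes are similar in sequence, and binding of its probes to other members was not analysed here. Myl4 (1422580_at), the embryonic and atrial light chain, had 674, 589.6 and 662 in control mice, 412, 463 and 502 in DEX mice and 379, 342 and 310.1 in DEX + TE mice. Its log2 fold change was −0.90 for DEX + TE against control (limma adjusted p = 0.0392) and −0.70 over all injected mice (limma adjusted p = 0.0385), and both calls were lost without each of the 9 arrays (limma adjusted p up to 0.152 and 0.135 over all alternatives), the second also under median centring and the first when only the arrays compared were fitted.

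In the other lists 0 genes were called in the reported fit. Hey1 was called for all injected mice under 1 alternative (lowest limma adjusted p = 0.036). Of 14 tested Notch pathway genes, 11 were higher in value and 3 lower over all injected mice, with Hey1 at 1.02 (0.36 to 1.68; limma adjusted p = 0.152), Heyl at 0.54 and Maml1 at 0.41, and a median of 0.10. The other Heyl probe set gave 0.45 and the other Maml1 probe set 0.04. Hey1 and Heyl are targets of Notch signaling, which keeps satellite cells quiescent, and Hey1 had signals of 168, 101 and 242 in control mice against 287, 428 and 260.2 in DEX mice and 369.6, 303 and 327 in DEX + TE mice. Of 12 tested upstream factors, the coactivator gene Vgll2 was at 0.40, its partner Tead1 at −0.31 and Meox2 at 0.35. Vgll2 had 4326, 4973 and 4887 in control mice against 6242, 7227 and 5981 in DEX mice and 5703, 5629 and 6832 in DEX + TE mice, without overlap with control (limma adjusted p = 0.149).

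Of 21 tested MEF2 regulators and cofactors, 10 were higher and 11 lower in value over all injected mice. Smarcd3, a chromatin remodeler subunit that works with MyoD, was at 0.29, the arginine methyltransferase Carm1 at −0.33 and Smyd1, a MEF2C target in muscle, at −0.29 (limma adjusted p = 0.169, 0.176 and 0.197). The other Smyd1 probe sets gave −0.14, 0.05, −0.63 and −0.19. Of 18 tested fusion genes, 7 were higher and 11 lower. Dock1, a Rac activator needed for fusion, had signals of 289.8, 296 and 291 in the DEX group and 454, 445 and 501 in the DEX + TE group, which did not overlap (log2 fold change 0.67, 0.26 to 1.09; limma adjusted p = 0.468). Cdh2 was at −0.94 for DEX against control, −0.51 for DEX + TE against control and −0.73 over all injected mice (limma adjusted p = 0.166, 0.418 and 0.179). The other Cdh2 probe set gave −1.26, −0.08 and −0.67. Adam12 was at −0.01, −1.26 and −0.64 in the same comparisons (limma adjusted p = 0.993, 0.295 and 0.481). It was dim, with signals of 25.4, 70.1 and 27.0 in the DEX + TE mice, the first and last of them under 50.

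The genes that respond to muscle activity through Myog had a median of 0.24 for DEX against control and −0.18 for DEX + TE against DEX over 8 tested. Chrna1, a subunit of the acetylcholine receptor and a target of Myog, had signals of 308, 366 and 244 in control mice, 456, 451 and 472 in DEX mice and 478, 449 and 402 in DEX + TE mice, with log2 fold changes of 0.61 and 0.55 against control (limma adjusted p = 0.153 and 0.207). The ubiquitin ligases Trim63 and Fbxo32, also targets of Myog after denervation, were at 0.42 and 0.67 for DEX against control, and at −0.71 and −0.47 for DEX + TE against DEX (limma adjusted p = 0.218 and 0.636). Under 1 alternative Trim63 was called for DEX + TE against DEX (lowest limma adjusted p = 0.022). Fbxo32 was called for DEX against control under 1 alternative as well (lowest limma adjusted p = 0.027). The other Fbxo32 probe sets gave 0.73 and 0.85 for DEX against control and −0.75 and −0.91 for DEX + TE against DEX (limma adjusted p = 0.306 and 0.505 in the latter). Myog itself was at 0.15 in the latter comparison. Of 7 tested proliferation genes, 5 were higher and 2 lower over all injected mice, with Tpx2 at 1.02, Ccnd1 at −0.77 and Top2a at 0.26 (limma adjusted p = 0.241, 0.215 and 0.802). Their other probe sets gave 0.59, 0.16 and −0.15 for Tpx2, −1.09 and −0.52 for Ccnd1 and −0.42 for Top2a, so the direction of Tpx2 and Top2a depended on the probe set. Top2a was also dim, at 49.5, 24.3 and 89.9 in control mice, 44.2, 25.7 and 49.4 in DEX mice and 71.1, 75.1 and 112 in DEX + TE mice.

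**Figure D5:**
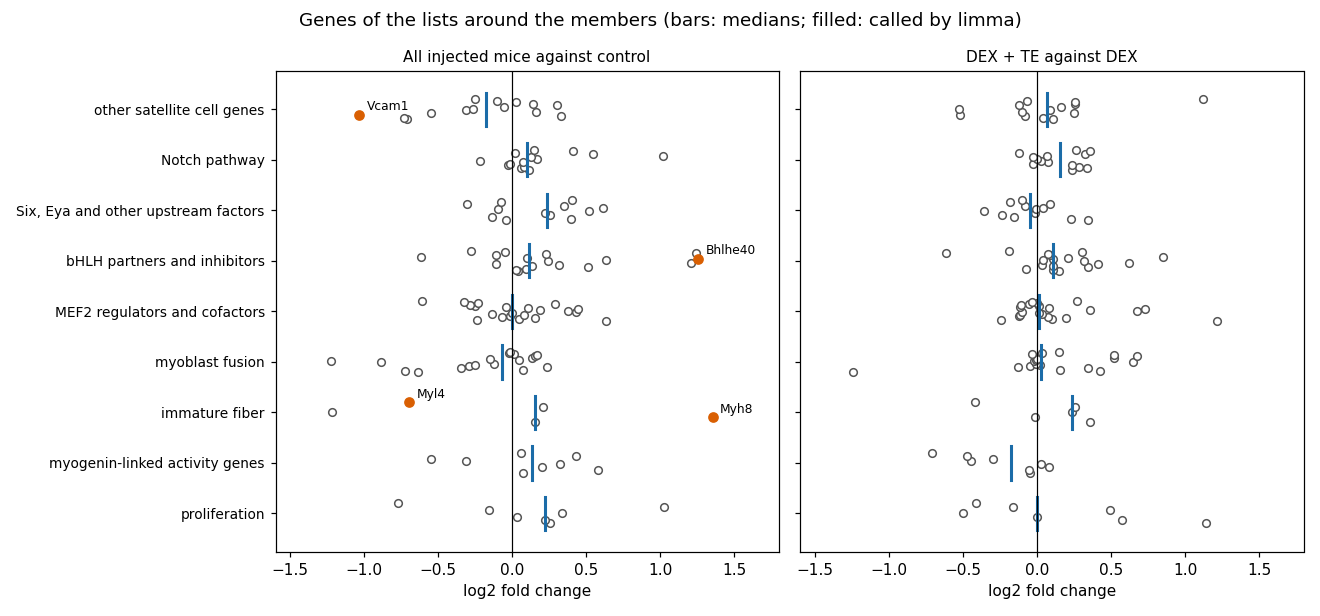
Log2 fold change (x axis) of each tested gene of 9 lists (y axis, 1 probe set per gene, spread vertically for legibility) for all injected mice against control (left) and DEX + TE against DEX (right), with list medians as bars and filled points for genes called by limma. Bhlhe40 and Myh8 lie above 1 and Vcam1 below −1 on the left, and no gene of these lists was called on the right.

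Markers of other cells in the muscle moved with the groups. The mean log2 signal of 7 fibroblast markers was 11.27 to 11.88 in the control mice, 9.91 to 10.41 in the DEX mice and 10.73 to 10.85 in the DEX + TE mice, and 4 of the 7 were called lower in the DEX group. The 8 fast fiber markers were 15.77 to 16.06, 15.32 to 15.59 and 15.57 to 15.71, all of them lower in value in both injected groups and 0 called. The 7 satellite cell markers include Pax7, Myf5, Cdh15 and Vcam1. They averaged 7.98 to 8.07 in control mice, 7.57 to 7.94 in DEX mice and 7.39 to 7.997 in DEX + TE mice. The group medians were 8.04, 7.74 and 7.88. The DEX range lay below that of control, whereas the DEX + TE range overlapped it. Against control, 3 of the 7 were higher in value and 4 lower in either injected group. An unadjusted p under 0.05 from limma was reached by 2 higher and 2 lower in each of these comparisons. Of the 7, Vcam1 alone was called, in the comparisons given above. The 3 adipocyte markers measured averaged 9.44 to 9.70 in control mice, 9.92 to 10.09 in DEX mice and 10.50 to 10.88 in DEX + TE mice. For DEX + TE against control 1 of them was called higher, and for DEX against control 0. The 7 slow fiber markers were 8.39 to 8.63 in control mice, 8.68 to 9.62 in DEX mice and 8.65 to 9.12 in DEX + TE mice, with 0 called. The 5 macrophage markers were 7.28 to 7.46, 6.87 to 7.57 and 7.87 to 7.90, with 0 called, and the 4 tenocyte markers 8.68 to 9.20, 7.92 to 8.24 and 8.23 to 8.92, with 1 called lower in the DEX group. Endothelium, Schwann cell and smooth muscle and pericyte markers had 0 called, and their ranges in control mice overlapped those of both injected groups. The part of these shifts in the values of the members was not tested.

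The genes whose signals moved most like a member across the 9 arrays were found by the root mean square difference of log2 signals, each centred on its own mean, among 13661 genes. For Cdh15, which deviated by 0.280 around its own mean, they were Map2k3 (0.0885), Serpinb6a (0.0979) and Exd1 (0.101). For Mef2c 1451506_at, which deviated by 0.136, they were Mrps26 (0.0457), Ecsit (0.0469) and Plekhb2 (0.0477). For Myog, which deviated by 0.362, they were Hyou1 (0.128), 3110001I22Rik (0.133) and Jund (0.139). These are the closest of many genes and carry no test.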

How the data were processed

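The authors deposited 1 linear intensity per probe set for 9 arrays of tibialis anterior RNA (250 ng per mouse, GeneChip 3′IVT Express Kit), scaled to a trimmed mean of 500 (2% left out at either end). The methods name Robust Multi-array Average, whose output is on a log2 scale, whereas these intensities are linear and of unequal median, and for the program behind them the sources used here name none. Groups came from the sample titles. According to the methods each mouse had its own cage, and nothing says whether mice shared processing days. The 64 control probe sets of 45101 were left out and log2 was taken with no offset. Limma 3.58.1 in R 4.3.3 fitted 3 group means to all 9 arrays (lmFit, eBayes), with Benjamini-Hochberg adjustment over 29269 probe sets, and tests were checked on simulated data. All injected mice means the average of the DEX and DEX + TE means. Tables, exact permutation tests, Rank Product (100 permutations) and figures were made in Python 3.11.15 with numpy 2.4.6, pandas 2.3.3 and matplotlib 3.10.9. The members, gene lists and tests were chosen with earlier results of these data known.

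All probe sets of the 10 genes are named. The probe set with the highest mean log2 signal stands for a gene. From each list up to 4 called genes are named or, where none was called, the 3 with the lowest unadjusted p. The genes most like a member are given for the 3 members with the lowest p among the probe sets that stand for a gene. Remarks on individual arrays were chosen after their values were seen. Some genes of the lists are not reported here. Alternatives were median centring, quantile normalization, no filter, a floor of 100, an offset of 16, a mean-variance trend, only the arrays compared, a replicate block, leaving out each array, Rank Product, unadjusted p and the mean over a gene's probe sets. The number of arrays limits the precision.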

Additional observations from a re-analysis of the deposited data

How the results depend on the processing

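The count of member probe sets called was 0 for DEX against control, DEX + TE against DEX and DEX + TE against control under each of 18 alternatives and 0 for all injected mice under each of 17, leaving out each array in turn included (lowest 0 and highest 0). The exception by construction was the unadjusted p under 0.05, which gave 4, 1, 9 and 8 in the same order. The unadjusted rule uses neither the correction over 29269 probe sets nor the threshold of 0.6 in absolute log2 fold change. In the reported fit the correction alone, at any fold, left 0 members in each comparison. The fold threshold alone would also exclude all 8 of the last comparison, where the largest change was 0.54, that of Myog.

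Over 96 member fold changes and their 1614 alternative values, 78 changed sign and 39 moved by more than 1 SD of the replicates. The median member fold change ranged from −0.17 to −0.05 for DEX against control, −0.28 to −0.02 for DEX + TE against DEX, −0.33 to −0.15 for DEX + TE against control and −0.22 to −0.12 for all injected mice. With the replicate number as a block the members called stayed at 0, and the calls of Vcam1, Bhlhe40, Myh8 and Myl4 were lost. Deviations of same-numbered arrays correlated between −0.02 and 0.05 (9 pairs). A correlation over all probe sets tested cannot show whether these arrays shared a step that touched few probe sets. With no filter these 4 calls were lost as well, and median centring ended those of Myh8 and Myl4 for all injected mice and of Bhlhe40 for DEX + TE against control, and quantile normalization that of Myh8; the cause was not tested.

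With 3 mice per group, the 95% interval for DEX against control ran from −0.27 to 0.15 for the bright Mef2a 1427185_at and from −1.96 to 0.78 for the dim Pax7 1444596_at, so a difference as large as the 0.6 threshold was not detectable in the latter.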
